A study of Mus musculus with 8 samples.

Results

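Trimetazidine (TMZ) was compared with control in mouse morulae, using the 4 morula libraries of a series of 8. TMZ inhibits the long-chain 3-ketoacyl-CoA thiolase, which carries out the last step of each round of mitochondrial fatty acid β-oxidation, and the comparison asks which transcripts differ when this pathway is blocked while the embryo forms its first epithelium. Embryos of ICR mice were cultured in KSOM medium. The TMZ group (2 libraries) received 100 μM TMZ and the control group (2 libraries) did not. The methods of the study name both the zygote and the 2-cell stage as the start of treatment. Both groups were collected 78 h after the injection of hCG that triggers ovulation. The other 4 libraries are 8-cell embryos of the same 2 treatments, collected at 70 h, and are used here only to ask whether a change in morulae differs from that in 8-cell embryos. RNA was amplified as full-length cDNA from whole embryos, and how many embryos went into a library is not given in the sources used here. Delayed development and altered expression at a given stage cannot be told apart in such RNA. The members of the comparison are the 9685 of 29202 table entries whose mean over the 4 libraries was 1 FPKM or more (FPKM is the number of fragments of a gene scaled to its length and to the library total). Of these, 8452 carry a gene name, among them 6639 protein-coding genes. The tables list no names, so each name was inferred from the gene length that the values imply and from the order of the entries. A name can therefore be wrong for a single gene.

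The morula is the stage at which blastomeres flatten against each other (compaction), acquire an outer and an inner face, and begin to choose between the outer trophectoderm, which builds the placenta, and the inner cell mass, which builds the embryo. E-cadherin and the PAR polarity proteins drive compaction. CDX2, KLF5 and TAZ (Wwtr1) act in the trophectoderm program, and OCT4 (Pou5f1) and NANOG keep inner cells pluripotent. At the same time the embryo moves from pyruvate to glucose, makes ribosomes at a high rate and divides quickly with short gaps between rounds of DNA synthesis.

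Most morula markers were present in the libraries. Of 12 morula markers 11 were named, and 10 of these stood at 1 FPKM or more on average. By the call rule given below, 6 of the markers were lower in TMZ and 0 were higher. The markers therefore do not show that both groups were at the same stage, which was not tested. Sox2 was listed at 0 in all 4 libraries. None of the 7 named markers of cumulus and granulosa cells reached 1 FPKM, with summed levels from 0.542 to 0.836 FPKM per library, so cells that surround the egg gave almost no signal. Oocyte markers summed to between 41.0 and 63.1 FPKM and markers of the 2-cell stage to between 13.7 and 15 FPKM, each with overlapping ranges in control and TMZ. Library totals ran from 31672356 to 33552381 fragments. The SD between replicates was 0.32 in control and 0.31 in TMZ on the log2 scale. Over genes, which do not count as replicates, the control libraries correlated at a Pearson's r of 0.976 and the TMZ libraries at 0.979. Between control and TMZ libraries it ran from 0.954 to 0.975.

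A property of the libraries moved with the comparison. When the named genes were split into 8 classes by the GC content of their longest transcript, the median log2 fold change of TMZ over control fell from class to class, from 0.21 in the class of lowest GC content (up to 41.8%) to -0.34 in that of highest (56.0% and above). The control libraries differed along the same axis, with a median difference of replicate 2 from replicate 1 of -0.25 in the lowest class and 0.20 in the highest. The TMZ replicates differed less, by 0.0025 and -0.12. Each count below is therefore given as deposited and, where it matters, after a GC adjustment that takes a smooth curve over GC content off every library (chosen after seeing the data).

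**Figure D1:**
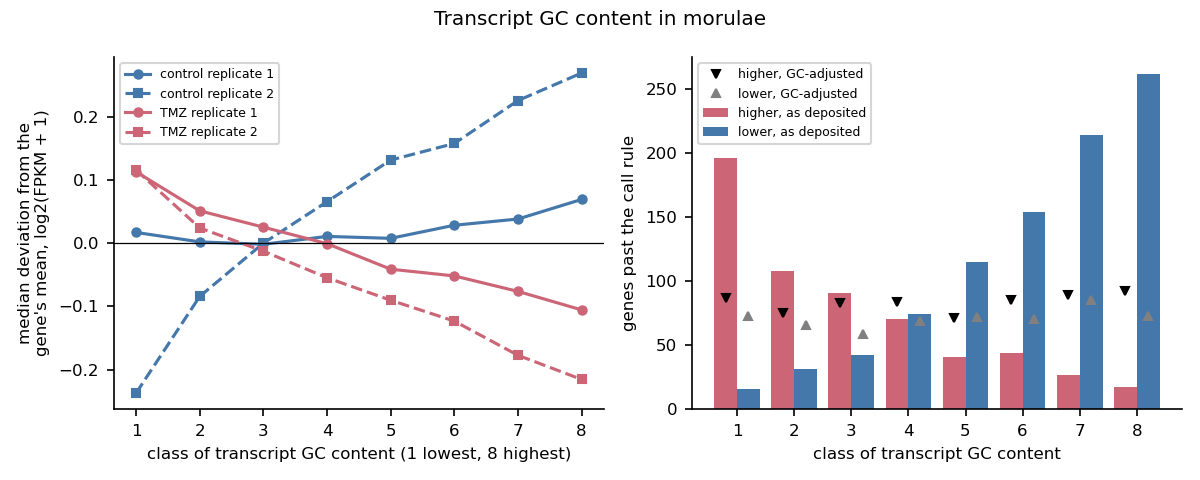
Left, median deviation of each morula library from the gene's mean over the 4 libraries, in log2(FPKM + 1), in 8 classes of transcript GC content of about equal size; right, number of genes past the call rule in each class, as deposited (bars) and GC-adjusted (triangles). Control replicate 2 rises from -0.24 to 0.27 across the classes, TMZ replicates 1 and 2 fall from 0.11 and 0.12 to -0.11 and -0.22, and control replicate 1 stays between -0.0018 and 0.069.

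A gene was called when its unadjusted P was under 0.05 and its log2 fold change was beyond 0.5 in size, by limma-trend on log2(FPKM + 1). By this rule 7.16% of the genes tested were higher and 10.7% lower in TMZ morulae. Median-ratio scaling, which sets the middle of all genes to about the same level in every library, moved these shares to 9.77% and 7.97%. It shifted the median log2 fold change of all genes from -0.076 to 0.004. Among named genes the shares were 7.19% higher and 11.1% lower as deposited, and 7.88% and 6.71% after GC adjustment. Among named protein-coding genes they were 5.29% and 12% as deposited, and 5.17% and 7.09% after GC adjustment. Of the genes called as deposited, 443 higher and 457 lower were called in the same direction after GC adjustment. Both TMZ libraries lay on the same side of both controls in 55.6% of the genes tested and in every gene called. Adjusted p-values (Benjamini-Hochberg) were under 0.05 for 3 genes, Gm9376, Lztr1 and Rps24-ps3, and between 0.111 and 0.254 in the other genes called. The last is a pseudogene with 74.5% of its 31-base stretches found elsewhere in the genome. A fit with a library left out keeps a single library in that group, so its spread between replicates comes from the other group alone. The calls rest most on TMZ replicate 2, without which 350 genes were higher and 436 lower.

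The largest rises among well-expressed protein-coding genes, with at least 10 FPKM on average and groups apart both as deposited and scaled, included Spry2, Pdrg1, Vbp1 and Cst7. Spry2, an inhibitor of signalling from growth factor receptors to ERK, stood at 42.0 and 31.3 FPKM in control and at 99.2 and 117 FPKM in TMZ. Both TMZ libraries were above both controls, with a log2 fold change of 1.55 (SE 0.20, adjusted p = 0.140 from limma), and the call held without any one library. Pdrg1, a gene that responds to DNA damage, stood at 51.9 and 66.9 against 128 and 209 FPKM (log2 fold change 1.46, SE 0.26). Vbp1, a subunit of the prefoldin complex that hands new actin and tubulin to the chaperonin, stood at 121 and 77.8 against 206 and 255.7 FPKM. Cst7, a cysteine protease inhibitor, stood at 32.5 and 20.9 against 63.2 and 61.5 FPKM. Magea13, Nup62cl and Vbp1 are genes of the X chromosome. Gm9376, Esp24, Gm5485 and Dynap complete the 10, and the call for Esp24 was lost without control replicate 2 or TMZ replicate 2.

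The largest falls by the same rule were led by 2 metabolic genes. Phgdh, the first enzyme of serine synthesis from glucose, stood at 68.4 and 51.8 FPKM in control and at 19.3 and 20.9 FPKM in TMZ, 0.335 times the control level. Its log2 fold change was -1.52 (SE 0.20, adjusted p = 0.140 from limma) and -1.22 after GC adjustment. Of its 31-base stretches 57.2% occur elsewhere in the genome, so reads of pseudogenes may have been counted with it. Fabp5, a carrier that brings fatty acids to the nucleus and to oxidation, stood at 23.5 and 24.9 against 8.84 and 6.96 FPKM, 0.326 times the control level (log2 fold change -1.51, SE 0.20, adjusted p = 0.140 from limma). Tdh, the threonine dehydrogenase that supplies glycine and acetyl-CoA in mouse pluripotent cells, stood at 33.1 and 45.7 against 11.3 and 16.8 FPKM. The others were Smpd1 (acid sphingomyelinase of the lysosome), Bst2, the ubiquitin ligase gene Rnf126, the actin-binding Tagln2, the neuropeptide gene Npy, the adenylate kinase Ak7 and 2310033P09Rik, at 0.319 to 0.386 times the control level. All 10 kept their call after GC adjustment and without any one library. In GRCm39, Phgdh lies on chromosome 3 from 98220484 to 98255047 and Fabp5 on chromosome 3 from 10077602 to 10081674.

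In 38 lists of genes by function, 1008 genes were tested, of which 41 were higher and 153 lower. After GC adjustment 43 were higher and 98 lower, and as deposited 52 were lower without TMZ replicate 2 and 76 without control replicate 2. A count in a single list can move more than these totals do. Each count below stands beside shares over all genes tested of 7.16% higher and 10.7% lower as deposited. After GC adjustment the shares of named genes were 7.88% and 6.71%. Named protein-coding genes had shares of 5.29% and 12% and a median of -0.13 as deposited. After GC adjustment these were 5.17%, 7.09% and -0.067. Of the 41 higher members 7 lie on the X chromosome (Atp6ap2, Ebp, Eda2r, Gnl3l, Lamp2, Ndufa1 and Prps1), which holds 37 of the members tested. As deposited, the lists with the lowest medians were those of the trophectoderm, lipid droplets and glycerolipids, aminoacyl-tRNA synthetases and amino acid stress. The highest were those of genes encoded by mitochondrial DNA and of p53 targets. The order depended on the GC adjustment, after which the lowest were those of the trophectoderm (-0.42), aminoacyl-tRNA synthetases (-0.29) and ribosome biogenesis (-0.25), and the highest was that of the nuclear respiratory chain (0.19).

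**Figure D2:**
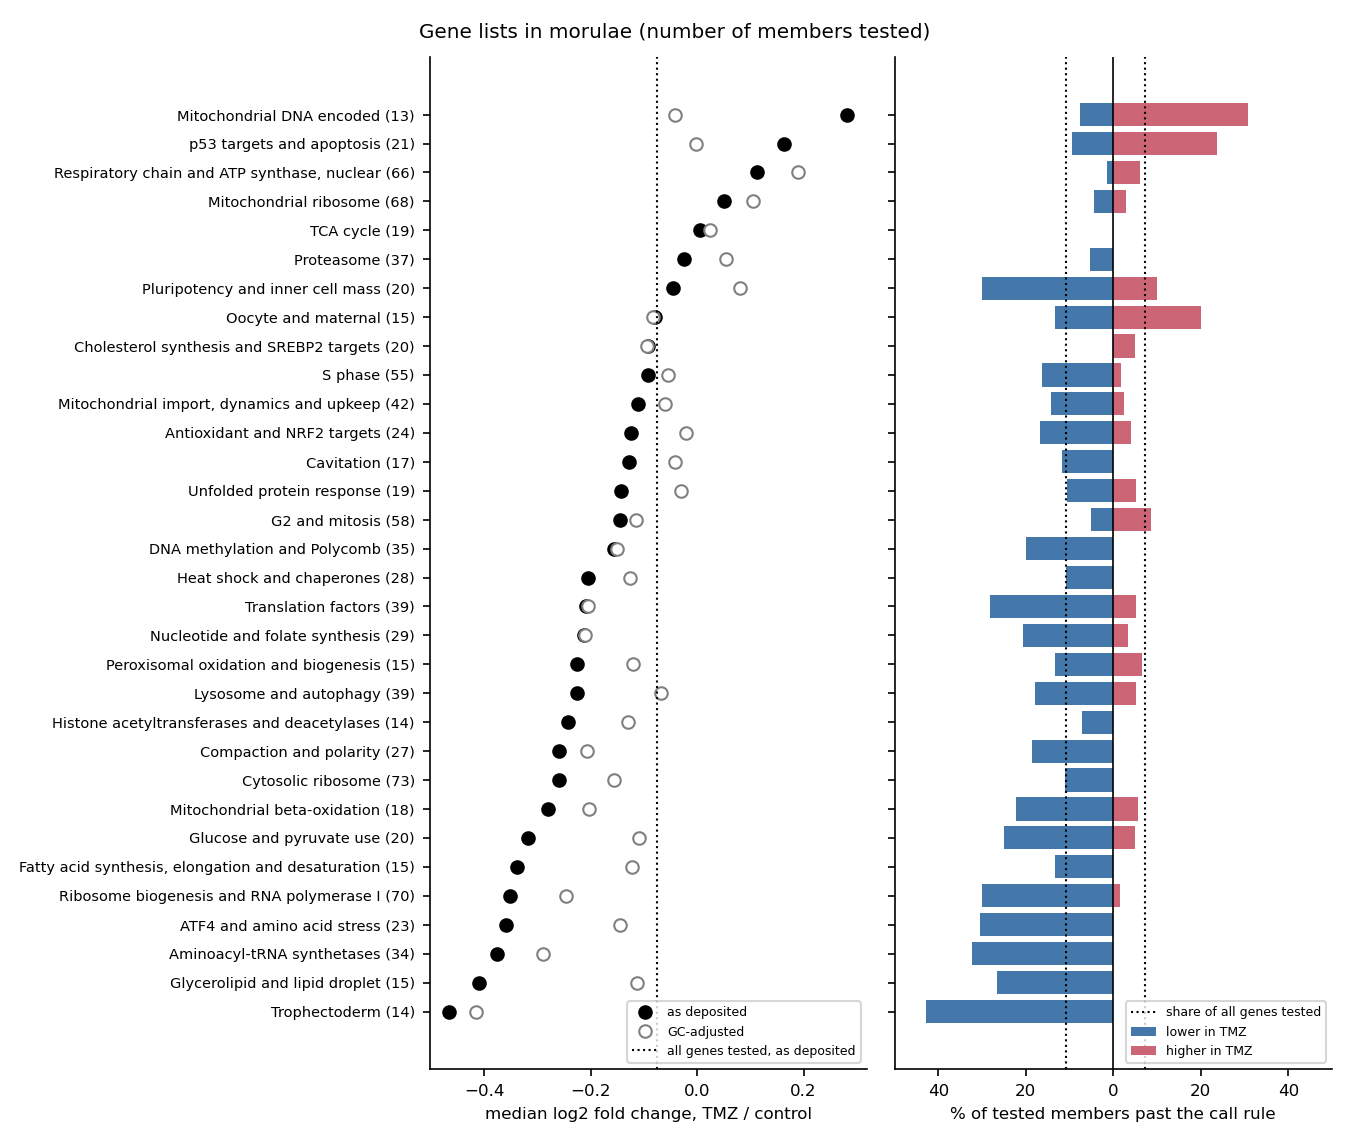
Left, median log2 fold change of TMZ over control in each list with at least 10 members tested (number in brackets), as deposited (filled) and GC-adjusted (open), with the median of all genes tested as a dotted line at -0.076; right, percent of tested members past the call rule, higher to the right and lower to the left, with the shares of all genes tested (7.16% and 10.7%) as dotted lines. The trophectoderm list is lowest at -0.47 as deposited and -0.42 GC-adjusted, and the list of mitochondrial DNA moves from 0.28 to -0.04. The median of named protein-coding genes, which is not drawn, was -0.13 as deposited.

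Several genes that make the trophectoderm fell. Of 14 tested, 6 fell (Krt8, Cdx2, Wwtr1, Klf5, Tfap2c and Fgfr2) and none rose, against 10.7% and 7.16% of all genes. The median was -0.47, with 11 below 0. When only names with a posterior of at least 0.99 were used, which leaves out Cdx2, Wwtr1 and Elf3, 4 of 11 fell and the median was -0.20. Krt8, a keratin of the first epithelium, stood at 19.5 and 22.7 FPKM in control and 11.2 and 6.43 FPKM in TMZ (log2 fold change -1.21, SE 0.27, adjusted p = 0.167 from limma). It shares 63.9% of its 31-base stretches with other places of the genome, and its partner Krt18 stood at 58.4 and 41.3 against 40.4 and 44.8 FPKM, with overlapping groups. Cdx2, the transcription factor that defines the lineage, was low at this stage, at 3.94 and 4.01 against 2.75 and 1.19 FPKM. Wwtr1, the Hippo pathway coactivator TAZ, stood at 16.7 and 24.4 against 12.3 and 11.6 FPKM, and Klf5 at 52.6 and 50.8 against 38.3 and 26.7 FPKM. In each of these 4 genes both TMZ libraries lay below both controls, as in every gene called lower. After GC adjustment 3 were called (Krt8, Wwtr1 and Klf5), and Cdx2 was not, at -0.49. The Krt8 call held without any one library, those of Wwtr1, Klf5 and Cdx2 did not, and the count was lowest at 1 when TMZ replicate 2 was left out and highest at 5 when TMZ replicate 1 was. Gata3, another trophectoderm factor, stood at 3.90 and 2.20 against 4.22 and 1.98 FPKM, which does not separate the groups. Fewer cells of the lineage and less RNA per cell cannot be told apart in such libraries.

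Pluripotency genes went both ways. Of 20 tested, 6 fell and 2 rose, with a median of -0.05. The falls were in Pou5f1, Nanog, Utf1, Tbx3, Tfcp2l1 and Tdh, and the rises in Klf17 and Sall4. Pou5f1 (chromosome 17 of GRCm39, 35816789 to 35822274) stood at 30.2 and 42.4 FPKM in control and at 18.97 and 11.03 FPKM in TMZ, a log2 fold change of -1.25 (SE 0.29, adjusted p = 0.167 from limma) and of -0.93 after GC adjustment. Nanog stood at 25.3 and 27.5 against 13.9 and 11.9 FPKM, 0.489 times the control level (log2 fold change -0.98, SE 0.18, and -0.997 after GC adjustment). The calls of Pou5f1 and Nanog held without any one library. Utf1, a chromatin factor of pluripotent cells, stood at 68.6 and 86.4 against 39.6 and 41.1 FPKM, and its call was lost after GC adjustment, at -0.50. Klf17, a Krüppel-like factor of early embryos, went the other way, at 11.8 and 13.1 against 30.7 and 20.8 FPKM (log2 fold change 0.97). Sall4 stood at 41.9 and 48.1 against 56.8 and 78.3 FPKM, and its call was lost without control replicate 1 or TMZ replicate 2. Dppa5a, the most abundant marker of the stage, stood at 7171 and 8921 FPKM in control and at 7239 and 8888 FPKM in TMZ, so the groups overlapped.

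**Figure D3:**
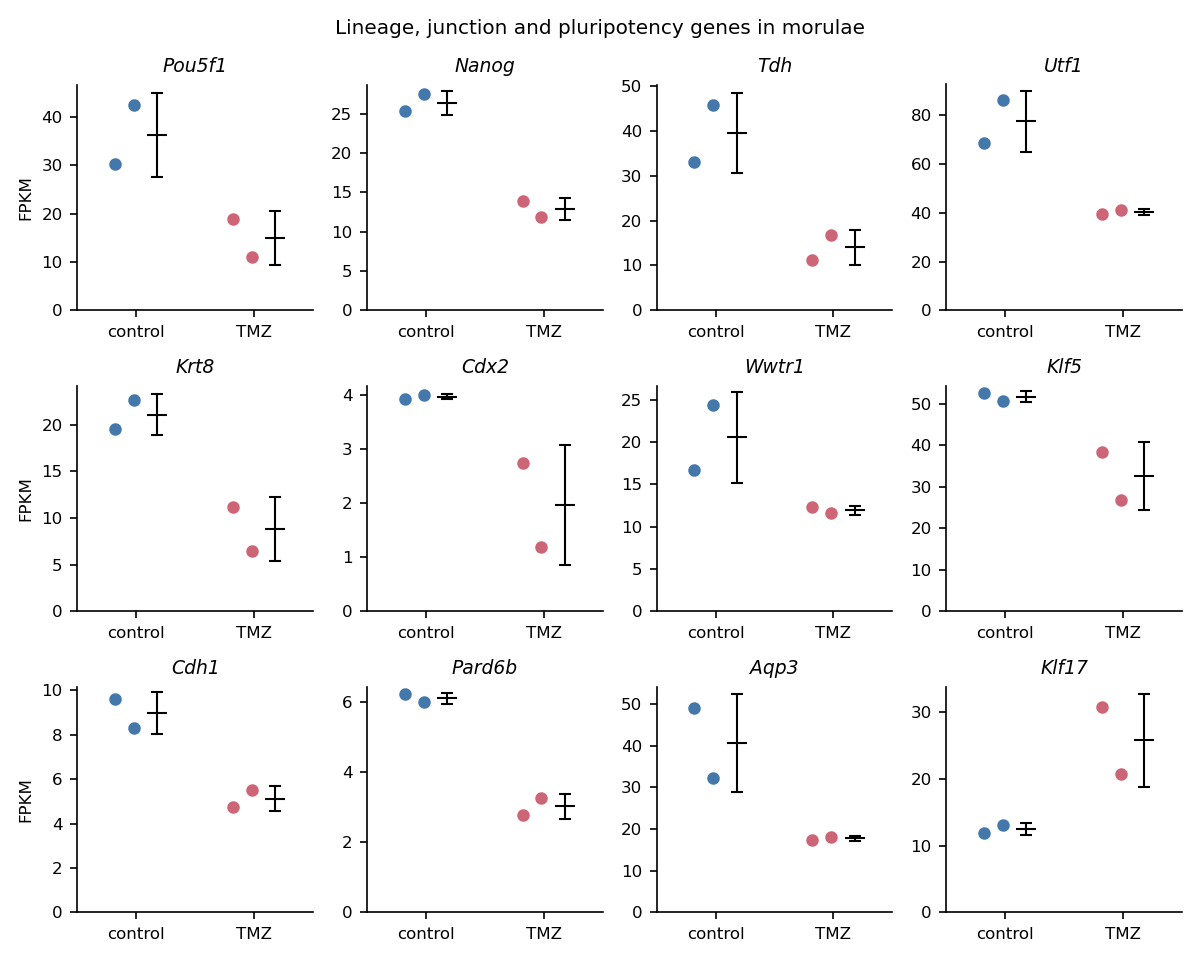
FPKM of 12 genes of pluripotency, trophectoderm, compaction and water transport in the 2 control (blue) and 2 TMZ (red) morula libraries; points are libraries, and the black mark beside them is the mean with the SD (n = 2). Only genes called as deposited were drawn, in all of which the groups were apart, and Krt18, Gata3 and Dppa5a, whose groups overlapped, were not. In 11 genes both TMZ points lie below both control points, as for Nanog (13.9 and 11.9 against 25.3 and 27.5), and in Klf17 both lie above.

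Of 27 adhesion and polarity genes that act in compaction, 5 fell (Cdh1, Pard6b, Nf2, Rdx and Ctnna1) and none rose, against 10.7% and 7.16% of all genes. The median was -0.26, with 24 below 0. Without TMZ replicate 1 the falls numbered 2, and without control replicate 2 they numbered 3. The same 5 were called after GC adjustment. Cdh1 encodes E-cadherin, which joins the blastomeres, and stood at 9.64 and 8.31 FPKM in control and at 4.73 and 5.52 FPKM in TMZ. Its partner Ctnna1 is α-catenin. Pard6b, a PAR polarity protein of the outer face that is needed to switch off Hippo signalling there, stood at 6.21 and 5.99 against 2.77 and 3.27 FPKM. Nf2, which switches Hippo signalling on in inner cells, stood at 5.75 and 6.34 against 3.11 and 3.37 FPKM. The Pard6b call (log2 fold change -0.82, SE 0.21) held without any one library, while Cdh1 was not called without control replicate 1 or TMZ replicate 1. Among 17 genes of cavitation, the pumps, channels and tight junctions that will fill the blastocyst with fluid, 2 fell. This share was near the 10.7% of all genes. The water and glycerol channel Aqp3 stood at 48.9 and 32.2 against 17.3 and 18.1 FPKM (log2 fold change -1.12, SE 0.23, adjusted p = 0.161 from limma). The claudin gene Cldn7 stood at 47.3 and 112 against 40.01 and 33.5 FPKM, and its call was lost after GC adjustment and without 3 of the 4 libraries in turn (all but control replicate 1).

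Of 35 regulators of DNA methylation and Polycomb 7 fell and none rose as deposited, against 10.7% and 7.16% of all genes (median -0.16). After GC adjustment 4 fell and Suv39h1 rose, and 3 fell without control replicate 2 or either TMZ replicate. Kdm2b, which brings Polycomb to CpG islands, stood at 8.77 and 7.98 against 4.33 and 3.21 FPKM, and Jarid2, a cofactor of the PRC2 methyltransferase, at 14.5 and 13.9 against 6.59 and 7.66 FPKM. Both calls held after GC adjustment and without any one library. The de novo DNA methyltransferase gene Dnmt3b, at 3.88 and 4.70 against 2.40 and 1.75 FPKM, and the H3K9 methyltransferase gene Setdb1, at 2.05 and 2.02 against 0.850 and 0.903 FPKM, were also called after GC adjustment. The Dnmt3b call was lost without either replicate 2, and that of Setdb1 without either replicate 1. Of 14 histone acetyltransferases and deacetylases tested, Kat2a (GCN5) alone was called, at 2.24 and 2.95 against 1.65 and 0.671 FPKM, and not after GC adjustment. None of the 3 acetyl-CoA makers tested was called.

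Several targets of p53, the factor that halts or kills damaged cells, rose. Of 21 genes tested, 5 rose and 2 fell, against 7.16% and 10.7% of all genes. The same 7 were called after GC adjustment, while the median of the list moved from 0.16 to -0.0019. When only names with a posterior of at least 0.99 were used, which leaves out Eda2r and Phlda3, 3 of 19 rose and the median was 0.02. Cdkn1a, the cell cycle inhibitor p21, stood at 32.6 and 24.2 FPKM in control and at 48.7 and 45.4 FPKM in TMZ, a log2 fold change of 0.72 (SE 0.20, adjusted p = 0.175 from limma) and of 0.93 after GC adjustment. Ccng1 (cyclin G1) stood at 10.2 and 9.47 against 23.7 and 18.01 FPKM, and Trp53inp1, a p53-induced nuclear protein, at 3.07 and 2.87 against 6.14 and 6.72 FPKM. Phlda3, a p53-induced inhibitor of AKT, stood at 14.4 and 15.03 against 30.5 and 20.1 FPKM. Eda2r, a death receptor of the TNF family on the X chromosome, stood at 4.42 and 1.16 against 10.1 and 9.74 FPKM (log2 fold change 1.68, SE 0.42). In all 5 genes both TMZ libraries lay above both controls, as in every gene called higher. The calls of Ccng1, Trp53inp1 and Eda2r held without any one library, Cdkn1a was not called without TMZ replicate 1, and Phlda3 was not called without control replicate 1 or TMZ replicate 1. The falls were in Perp, a membrane protein of cell junctions, and Mcl1, which protects from apoptosis. Mcl1 stood at 30.6 and 30.5 against 18 and 22.2 FPKM.

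In 8-cell embryos the treatments overlapped in all 5 of these genes. Cdkn1a stood there at 32.9 and 20.7 FPKM in control and at 14.3 and 25.7 FPKM in TMZ. The difference between the stages, tested in a single fit over all 8 libraries and 7751 genes, was past the call rule for Eda2r (1.605, SE 0.58, adjusted p = 0.492 from limma), Trp53inp1 (1.27, SE 0.42, adjusted p = 0.437 from limma) and Cdkn1a (1.14, SE 0.46, adjusted p = 0.557 from limma). It was not for Ccng1 (1.41, SE 0.63) and Phlda3 (1.24, SE 0.59). Over all genes 6.94% had a positive and 1.29% a negative difference past the rule.

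**Figure D4:**
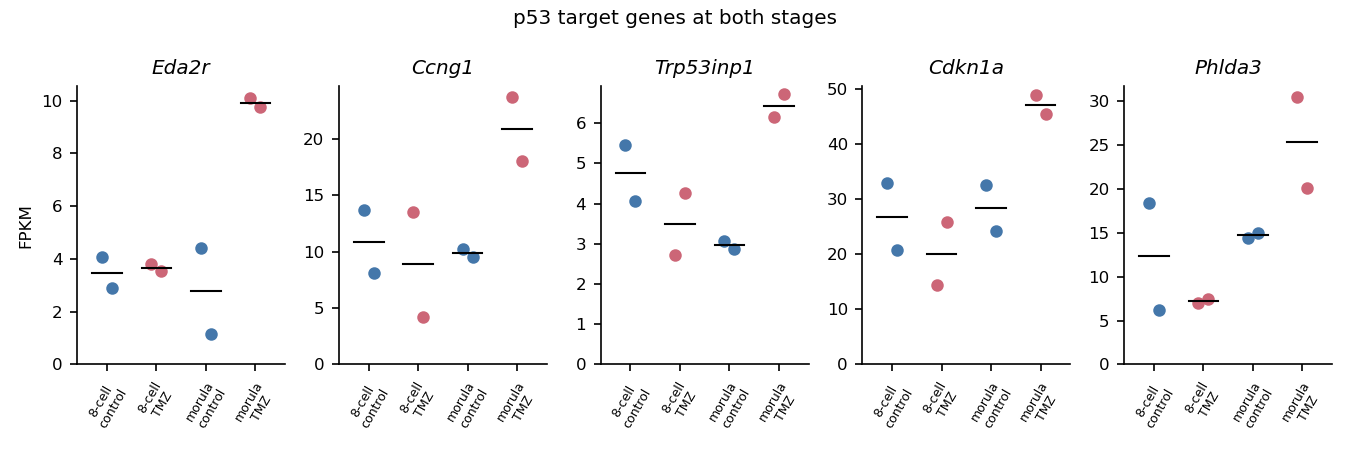
FPKM of 5 p53 target genes in control (blue) and TMZ (red) libraries of 8-cell embryos and morulae; points are libraries and black lines are means (n = 2). The 5 genes are those of the list called higher in morulae, so in each panel both TMZ morula points lie above both control morula points. In 8-cell embryos the treatments overlap in all 5, as for Cdkn1a (14.3 and 25.7 FPKM with TMZ, 32.9 and 20.7 without).

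The serine and folate pathway followed Phgdh only in part. Shmt2, the mitochondrial enzyme that passes the carbon of serine to folate, stood at 10 and 9.81 FPKM in control and at 5.00 and 2.25 FPKM in TMZ, 0.366 times the control level (log2 fold change -1.30, SE 0.31, adjusted p = 0.167 from limma). The intermediate steps of serine synthesis did not pass the rule. Psat1 stood at 257 and 266 against 243 and 196 FPKM, and Psph at 4.74 and 5.96 against 4.69 and 6.39 FPKM. Nor did Mthfd2, at 9.15 and 12.7 against 8.25 and 6.78 FPKM, or the cytosolic Shmt1, at 15.4 and 19.8 against 14.0 and 9.52 FPKM. Psat1, Psph, Mthfd2 and Shmt1 were chosen after their values were seen. Among 29 genes of nucleotide and folate synthesis 6 fell (Shmt2, Impdh1, Atic, Uck2, Cad and Mthfd1) and 1 rose. Atic, which closes the purine ring, stood at 7.80 and 7.08 against 3.83 and 3.42 FPKM, and Uck2, which salvages uridine, at 37.9 and 45.9 against 26.1 and 19.4 FPKM. Both calls held after GC adjustment and without any one library. The rise was in the X-linked Prps1, which makes the ribose phosphate from which nucleotides are built, at 1717 and 1276 against 2466 and 3034 FPKM.

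Phgdh and Shmt2 are also targets of ATF4, the factor that answers amino acid shortage by raising such genes. Of 23 ATF4 and amino acid stress genes tested 7 fell and none rose, against 10.7% and 7.16% of all genes. The median was -0.36, with 20 below 0. After GC adjustment 5 were called and the median was -0.14. Atf4 itself was among the 7 as deposited and not after GC adjustment. Asns, the asparagine synthetase and a classic target, stood at 14.1 and 18.9 against 16.3 and 13.9 FPKM, which overlap (chosen after its value was seen). Of 19 genes of the unfolded protein response 1 rose and 2 fell, and none was called after GC adjustment. The share of falls was near the 10.7% of all genes.

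**Figure D5:**
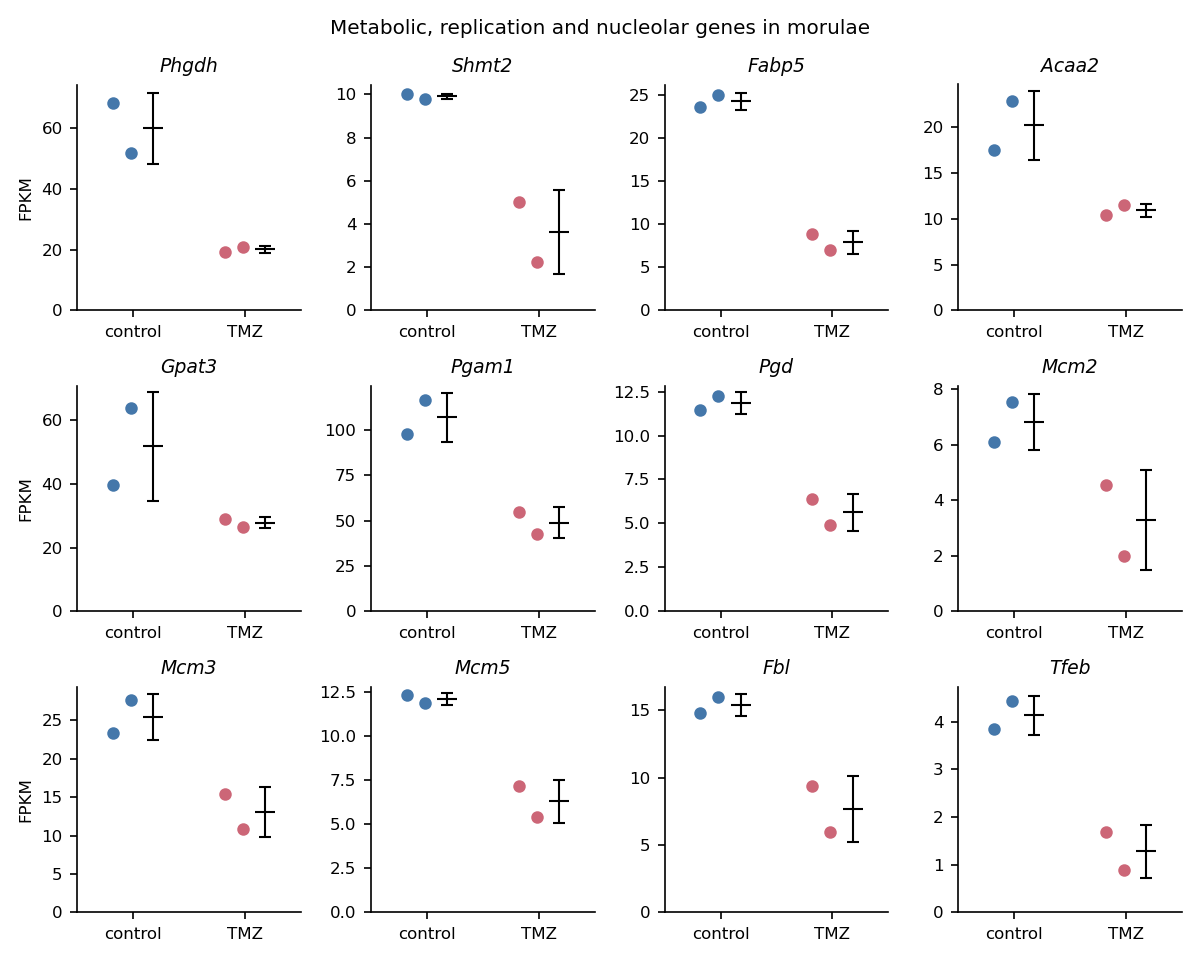
FPKM of 12 genes of serine, lipid and glucose metabolism, DNA replication, the nucleolus and the lysosome in the 2 control (blue) and 2 TMZ (red) morula libraries; points are libraries, and the black mark beside them is the mean with the SD (n = 2). Only genes called lower as deposited were drawn, and the groups were apart in every gene called. In every panel both TMZ points therefore lie below both control points, with Phgdh at 19.3 and 20.9 against 68.4 and 51.8 FPKM.

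In the pathway that TMZ blocks, 4 of 18 mitochondrial β-oxidation genes fell and 1 rose, against 10.7% and 7.16% of all genes. The median was -0.28, with 13 below 0. Acaa2, a mitochondrial thiolase of the same reaction as the target, stood at 17.6 and 22.9 FPKM in control and at 10.5 and 11.5 FPKM in TMZ. It was the only fall that was called after GC adjustment (-0.57), and it held without any one library. Hadha and Hadhb, the subunits of the trifunctional protein, which holds the long-chain thiolase activity, differed from each other. Hadha stood at 3.47 and 3.47 against 2.31 and 1.505 FPKM and was not called after GC adjustment, while Hadhb stood at 21.6 and 21.2 against 22.7 and 22.0 FPKM and was not called. Acadvl, which opens the oxidation of very long chains, stood at 2.998 and 2.90 against 1.75 and 1.43 FPKM. Etfdh, which passes the electrons of β-oxidation to ubiquinone, rose, at 1.08 and 1.63 against 2.699 and 3.19 FPKM, with its call lost without control replicate 1 or TMZ replicate 2. Acsl5, an acyl-CoA synthetase that readies fatty acids for oxidation, was listed at 0 in 3 libraries and at 0.0797 FPKM in control replicate 2. Of 15 peroxisomal genes tested 2 fell (Cat and Decr2) and 1 rose (Pex3), shares near the 10.7% and 7.16% of all genes. After GC adjustment Abcd3 and Decr2 fell and none rose.

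Of 15 glycerolipid and lipid droplet genes 4 fell and none rose, against 10.7% and 7.16% of all genes, and the median was -0.41. Gpat3, which starts triglyceride synthesis, stood at 39.6 and 63.6 against 29.0 and 26.6 FPKM. Plin3, a coat protein of lipid droplets, stood at 11.9 and 12.3 against 7.52 and 7.37 FPKM. These 2 were called after GC adjustment, and Pnpla3 and Hilpda were not; the adjusted median was -0.11. The Gpat3 call was lost without control replicate 2 or TMZ replicate 2, and that of Plin3 without either TMZ replicate. Among 7 genes of fatty acid uptake and PPAR targets Fabp5 and Rxra fell and Acbd5 rose, and Fabp5 alone was called after GC adjustment. Of 15 genes of fatty acid synthesis and elongation 2 fell as deposited (Acot7 and Elovl5), a share near the 10.7% of all genes. After GC adjustment Elovl5 and Elovl6 fell and Elovl1 rose. Of 20 genes of cholesterol synthesis the X-linked Ebp rose and none fell as deposited, while after GC adjustment Ebp and Fdft1 rose and Cyp51 and Hsd17b7 fell. Without control replicate 1 or TMZ replicate 1, 2 of these 20 fell.

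Transcripts of a few genes of glucose use were lower. Of 20 genes tested 5 fell and 1 rose, against 10.7% and 7.16% of all genes. The median was -0.32 (-0.11 after GC adjustment). Pgam1, a glycolytic mutase, stood at 97.3 and 116 FPKM in control and at 54.9 and 42.8 FPKM in TMZ (log2 fold change -1.12, SE 0.19, adjusted p = 0.161 from limma), and 81.5% of its 31-base stretches are found at other places of the genome. Pgd, which makes NADPH in the pentose phosphate pathway, stood at 11.4 and 12.3 against 6.39 and 4.91 FPKM. Both calls held after GC adjustment and without any one library. Gpi1 stood at 3.84 and 4.34 against 1.83 and 2.34 FPKM and was also called after the adjustment but not without control replicate 2 or TMZ replicate 1, while Taldo1 and Tkt, of the same pathway as Pgd, were not. The rise was in Mpc1, a subunit of the carrier that lets pyruvate into mitochondria, at 81.2 and 80.6 against 107 and 124 FPKM, and was lost after GC adjustment, at 0.47. None of the 19 TCA cycle genes tested was called as deposited with all libraries, and their median was 0.0046. After GC adjustment Idh3g, which is X-linked, rose (0.57), and 1 gene rose after scaling. Without control replicate 1, 2 rose, and without TMZ replicate 1, 2 fell.

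Several DNA replication genes fell, among them genes of the MCM helicase, which is loaded on origins before S phase and unwinds DNA in it. Of 55 S phase genes tested 9 fell and 1 rose (Orc4), against 10.7% and 7.16% of all genes. Their median was -0.09, near the -0.076 of all genes and above the -0.13 of named protein-coding genes. After scaling it was 0.0025, beside 0.004 for all genes and -0.049 for named protein-coding genes. The falls numbered 3 without TMZ replicate 2 and 5 without control replicate 2. After GC adjustment 6 fell, Orc4 was not called (0.495) and Gmnn, which holds Cdt1 in check, rose. The falls as deposited were Mcm2, Mcm3, Mcm5 and Mcm7 of the helicase, Mcm10, the loader Cdt1, the checkpoint gene Clspn, the ligase Lig1 and the polymerase subunit Pold2. Mcm3 stood at 23.4 and 27.6 FPKM in control and at 15.4 and 10.8 FPKM in TMZ (log2 fold change -0.92, SE 0.23, adjusted p = 0.167 from limma). Mcm5 stood at 12.4 and 11.9 against 7.18 and 5.44 FPKM, Mcm2 at 6.12 and 7.53 against 4.55 and 2.01 FPKM, and Mcm10 at 8.05 and 10.1 against 4.38 and 3.87 FPKM. Mcm7 stood at 18.7 and 17.1 against 12 and 12.1 FPKM. Mcm4 stood at 19.8 and 17.7 against 16.6 and 10.95 FPKM and did not pass the rule as deposited (-0.44) but did after GC adjustment (-0.55). Mcm6 stood at 35.1 and 34.2 against 25.2 and 25.9 FPKM and did not pass, at -0.43. In all 6 helicase genes, called or not, both TMZ libraries lay below both controls, as in 3225 of the 9685 genes tested. The calls of Mcm3, Mcm5 and Mcm10 held after GC adjustment and without any one library, and those of Mcm7, Cdt1, Lig1 and Pold2 were lost after GC adjustment. In none of the helicase genes did the difference between the stages pass the rule, as for Mcm3 (-0.14) and Mcm5 (-0.26). Over the 55 S phase genes 1 positive and 1 negative difference passed it.

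MCM genes are known targets of E2F, which binds words such as TTTCCCGC in promoters. The promoters of the helicase genes are shown where they hold such a word. Since these genes are known targets, words in their promoters do not bear on the change in TMZ. Of those called as deposited, Mcm3, Mcm5 and Mcm7 hold a word and Mcm2 does not, while Mcm6 holds a word and was not called. A part of E2F in these changes was not tested. The RefSeq promoters of GRCm38.p6 (250 bases before to 50 after the start site) were searched for TTTCCCGC, TTTGGCGC, TTTCGCGC and TTTGCCGC on both strands. Of 32851 promoters 2.26% hold at least 1 of these words, as do 2.6% of the 27025 genes with a promoter. Of the 6 helicase genes 5 matched a promoter (all but Mcm4), and 4 of these hold a word (all but Mcm2). Capitals mark the words, which overlap in the stretches of Mcm5 and the first of Mcm6. A match of letters is a description and not a binding site.
Mcm3, chr1:20820265-20820294, minus strand: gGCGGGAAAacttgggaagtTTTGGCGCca
Mcm5, chr8:75109347-75109376, plus strand: gccaagaacTTTCGCGCCAAAacgtccagc
Mcm6, chr1:128359795-128359824, minus strand: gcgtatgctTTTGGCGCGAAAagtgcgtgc
Mcm6, chr1:128359734-128359763, minus strand: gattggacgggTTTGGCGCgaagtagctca
Mcm7, chr5:138172030-138172059, minus strand: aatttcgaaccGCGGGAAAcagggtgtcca
Mcm7, chr5:138171849-138171878, minus strand: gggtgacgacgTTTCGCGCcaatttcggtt

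Of 58 G2 and mitosis genes tested 5 rose (Aurka, Spc25, Sgo1, Cks2 and Mad2l1) and 3 fell (Nek2, Cenpf and Bub1b), against 7.16% and 10.7% of all genes, so the share of rises was near that of all genes. After GC adjustment Cks2 and Aurka rose, and Cenpf, Nek2 and Kif20b fell. Nek2, a kinase that separates centrosomes, stood at 14.5 and 16.0 against 8.29 and 8.14 FPKM, and its call held after GC adjustment and without any one library. Cks2, a subunit of cyclin-dependent kinases that shares 54.6% of its 31-base stretches with other places, stood at 2197 and 1383 against 2362 and 3079 FPKM. Mad2l1, of the spindle checkpoint, stood at 43.1 and 30.04 against 54.1 and 58.8 FPKM and was not called after GC adjustment or without control replicate 2, TMZ replicate 1 or TMZ replicate 2.

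Genes that make ribosomes held the most falls by number, though not for the size of the list, with 6 of 14 in the trophectoderm list. Of 70 genes of ribosome biogenesis and RNA polymerase I, 21 fell and 1 rose, against 10.7% and 7.16% of all genes. The median was -0.35 and 55 were below 0. Scaling left 13 falls and GC adjustment 8 (Rrp8, Fbl, Mybbp1a, Pes1, Noc2l, Heatr1, Ubtf and Nop14), with an adjusted median of -0.25. After GC adjustment 6.71% of named genes were lower. Without TMZ replicate 2, 7 fell. Fbl, the methyltransferase of nucleolar RNA, stood at 14.8 and 16.0 FPKM in control and at 9.39 and 5.93 FPKM in TMZ (log2 fold change -0.95, SE 0.25, adjusted p = 0.169 from limma). Mybbp1a, a nucleolar protein that acts on RNA polymerase I and p53, stood at 15.4 and 17.9 against 8.36 and 8.53 FPKM, and Noc2l at 22.3 and 20.3 against 12.6 and 9.56 FPKM. Ubtf, which opens ribosomal DNA for transcription, stood at 13.6 and 16.2 against 7.68 and 8.46 FPKM. The calls of Fbl, Mybbp1a, Noc2l and Ubtf held without any one library. The rise was in the X-linked Gnl3l, a nucleolar GTPase, at 6.99 and 5.94 against 10.97 and 15.2 FPKM.

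Of 34 aminoacyl-tRNA synthetases, which charge tRNAs with amino acids, 11 fell and none rose, with a median of -0.38. Scaling left 8 and GC adjustment 6, and 3 fell without TMZ replicate 2. Sars2, the mitochondrial seryl synthetase, stood at 7.73 and 9.13 against 3.59 and 3.49 FPKM (log2 fold change -1.05, SE 0.21, adjusted p = 0.161 from limma), and Gars1 at 30.7 and 27.7 against 17.8 and 17.2 FPKM. Vars1 was listed at 247 FPKM in control replicate 1 and at 1.82, 0.685 and 0.687 FPKM in the other libraries, and was not called. Of 39 translation factors 11 fell and 2 rose, with 7 falls after GC adjustment, 5 without control replicate 2 and 2 without TMZ replicate 2. Eif4g1, the scaffold of cap-dependent initiation, stood at 12.4 and 13.1 against 6.79 and 4.83 FPKM, and Eef2, the elongation factor that moves the ribosome, at 142 and 162 against 93.9 and 79.5 FPKM. The rises were in subunits of eIF2, with Eif2s1 at 221 and 183 against 265 and 326 FPKM and Eif2s2 at 615 and 571 against 865 and 886 FPKM. Eif2s1 alone was called after GC adjustment. The 73 cytosolic ribosomal protein genes had a median of -0.26 with 65 below 0, and 8 fell, a share near the 10.7% of all genes, among them Rpl8 at 805 and 936 against 609 and 434 FPKM. After GC adjustment 5 fell and Rpl41 rose. The falls numbered 15 without control replicate 1, 3 without control replicate 2 and 1 without TMZ replicate 2. Many ribosomal protein genes have pseudogenes that share their reads.

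Of 66 genes of the respiratory chain encoded in the nucleus 4 rose and 1 fell, against 7.16% and 10.7% of all genes. The median was 0.11 with 44 above 0, and after GC adjustment 8 rose and none fell. Without control replicate 1, 5 rose and 4 fell, without TMZ replicate 1, 4 rose and 5 fell, and without TMZ replicate 2, 1 rose and none fell. Ndufa1, an X-linked subunit of complex I, stood at 203 and 178 against 297 and 387 FPKM. It rose by 0.83 on the log2 scale (SE 0.18, adjusted p = 0.164 from limma), and by 0.94 after the adjustment. Ndufc1 stood at 121 and 103 against 152 and 179 FPKM. Of the 13 protein genes of mitochondrial DNA 4 rose (mt-Atp8, mt-Co1, mt-Co3 and mt-Cytb) and 1 fell (mt-Co2), with a median of 0.28. These transcripts have low GC content, with a median of 37.1%, and after GC adjustment the median was -0.04 with 1 rise and 3 falls. mt-Cytb stood at 5092 and 2883 against 5854 and 6471 FPKM and was called only with all 4 libraries or without control replicate 1. Every 31-base stretch of mt-Atp8, mt-Co2 and mt-Co3 is also found elsewhere in the genome. Of 68 mitochondrial ribosomal protein genes 2 rose and 3 fell as deposited, 6 rose and 2 fell after GC adjustment, and 8 rose and 1 fell after scaling. Of 42 genes of mitochondrial import, dynamics and upkeep 6 fell and 1 rose, beside 10.7% and 7.16% of all genes. Pink1, the kinase that marks damaged mitochondria, stood at 15.2 and 13.5 against 7.08 and 4.49 FPKM (log2 fold change -1.20, SE 0.25, adjusted p = 0.161 from limma), and its call held after GC adjustment and without any one library.

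Of 39 genes of the lysosome and autophagy tested 7 fell and 2 rose, against 10.7% and 7.16% of all genes. Their median was -0.23 (-0.07 after GC adjustment). Tfeb, the factor that drives lysosomal genes, stood at 3.83 and 4.42 against 1.68 and 0.891 FPKM, 0.311 times the control level, and Ulk1, the kinase that starts autophagy, at 15.8 and 18.99 against 9.33 and 8.83 FPKM. Both calls held after GC adjustment and without any one library. Lamp2 and Atp6ap2, the 2 rises, are X-linked. Rragd, a Rag GTPase of nutrient sensing at the lysosome, stood at 11.3 and 16.8 against 28.2 and 36.7 FPKM (log2 fold change 1.17, SE 0.25, chosen after its value was seen). Of 24 antioxidant genes 4 fell (Cat, Gpx1, Prdx1 and Sod2) and 1 rose (Gsta4), beside the same shares of all genes. After GC adjustment Prdx1 and Sod2 fell and Gsta4 and Ftl1 rose. Prdx1, a peroxide-reducing enzyme, stood at 276 and 260 against 187 and 161 FPKM. Of 28 heat shock genes 3 fell (Bag3, Hspb1 and Hsph1), a share near the 10.7% of all genes. Of 37 proteasome genes 2 fell (Psmd3 and Psmd8), a share below it. Psmd3, of the proteasome lid, stood at 34.1 and 31.9 against 18.2 and 13.3 FPKM and kept its call after GC adjustment and without any one library.

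Transcripts left from the egg were few. Of 15 oocyte and maternal genes tested 3 rose (Omt2a, Omt2b and Btg4) and 2 fell (Npm3 and Npm2), beside 7.16% and 10.7% of all genes. Btg4, which takes part in the clearance of maternal mRNA, stood at 0.474 and 0.793 FPKM in control and at 2.96 and 1.12 FPKM in TMZ, and was not called after GC adjustment. In 8-cell embryos it stood at 7.09 and 7.48 FPKM in control and at 1.53 and 2.12 FPKM in TMZ, and the difference between the stages was 2.40 (SE 0.48, adjusted p = 0.210 from limma). None of the 7 genes of the 2-cell stage tested was called. Of 7 imprinted genes Impact, a paternally expressed regulator of GCN2, rose from 7.91 and 7.59 FPKM to 16.3 and 18.3 FPKM (log2 fold change 1.06, SE 0.19, adjusted p = 0.161 from limma), and Smoc1 fell as deposited only.

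For some of the genes above the difference between the stages passed the call rule, which uses an unadjusted P. In none of them was the adjusted p-value from limma under 0.05. The difference between the stages was not GC-adjusted. Phgdh stood at 88.4 and 49.9 FPKM in 8-cell controls and at 75.4 and 60.8 FPKM in 8-cell TMZ embryos, which overlap, and the difference between the stages was -1.55 (SE 0.41, adjusted p = 0.345 from limma). Fabp5 differed by -1.07 (SE 0.37, adjusted p = 0.478 from limma) and stood lower in 8-cell embryos, at 4.26 and 5.07 against 3.09 and 3.24 FPKM. Past the rule in the same direction were Gpat3 (-0.97), Pgam1 (-0.86) and Prdx1 (-1.07). Pou5f1 (-1.11, SE 0.51), Nanog (-0.39, SE 0.47) and Krt8 (-0.98, SE 0.47) did not pass. By the largest differences among well-expressed protein-coding genes, Zfp97 (1.603), Magea13 (1.57) and Nup62cl (1.48) were positive, and Vars1 (-9.06), Sbp (-1.97) and Pola2 (-1.61) negative. Vars1 varied within groups at both stages, from 0.955 to 881 FPKM between the 8-cell controls. Only Rprl3 had an adjusted p-value under 0.05 for the difference (limma), and no gene had one after median-ratio scaling. The numbers of genes past the rule depended on the 8-cell TMZ libraries, with 672 positive and 393 negative without library A and 1000 and 170 without library B, against 538 and 100 with all 8.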

How the data were processed

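RNA of whole mouse embryos was sequenced in 8 libraries, 2 for each of control and TMZ at the 8-cell and morula stages, which the study calls biologically independent. Its methods give a larger number of biological replicates for these embryos than the labels do. Per the labels and the methods of the study, the authors trimmed reads with fastp 0.23.4, aligned them to GRCm39 with STAR 2.7.9a and counted fragments per gene with featureCounts 2.0.6. One table per stage was deposited, with values in FPKM. The Ensembl release and the strand setting are not given in the sources used here, so reads of overlapping genes cannot be told apart. The authors' own count test was not repeated, since the deposited values are FPKM and whole fragments were recovered only up to a whole factor.

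FPKM values are whole fragments divided by gene length and library total. Library totals were solved from the values and explained all 29202 entries of the morula table. Gene lengths recovered in this way were aligned, by a hidden Markov model, to the exon-union lengths of GENCODE vM39 with its genes in the order of their Ensembl identifiers, and names with a posterior of at least 0.95 were kept (23592 of 29202). All 73 named cytosolic ribosomal protein genes and 4 of 180 olfactory receptor genes averaged 1 FPKM or more. The 8-cell TMZ columns carry the same header and are named A and B here.

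TMZ was compared with control by limma-trend (limma 3.58.1, R 4.3.3) on log2(FPKM + 1), for entries that averaged 1 FPKM or more, and fold changes are on that scale, which understates those of low genes. The difference between stages was fitted over all 8 libraries without GC adjustment, with each stage's difference taken within its own table. Transcript GC content and the share of 31-base stretches found elsewhere were computed from GRCm39. Alternatives were median-ratio scaling, another pseudocount (0.1), other filters, a posterior of 0.99, a replicate block, voom on recovered fragments, leaving out each library and, chosen after seeing the data, scaling over all entries, the GC adjustment and its combinations. Fits and alignment were tested on simulated data.

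The comparison, the gene lists and the rule for named genes were chosen with earlier results of these data known. The rule names the genes the study names, the 10 largest rises and falls among protein-coding genes with a mean of at least 10 FPKM that pass both as deposited and scaled with groups apart, up to 4 members per list and direction, genes with an adjusted p-value under 0.05, and the 3 largest differences between stages in each direction. Other genes were named after their values were seen. Whether the replicate numbers pair the libraries is not given in the sources used here, and the main fit did not pair them. Counting intervals are not given, since they do not include the spread between libraries.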

Additional observations from a re-analysis of the deposited data

Results flagged for a closer look

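Rprl3, a small RNA gene annotated as a ribozyme on chromosome 8 of GRCm39 (3853069 to 3853358), responded in opposite directions at the 2 stages. In morulae it stood at 2.51 and 3.29 FPKM in control and at 7.36 and 13.1 FPKM in TMZ. In 8-cell embryos it stood at 12.7 and 18.9 FPKM in control and at 1.12 and 1.596 FPKM in TMZ. The groups did not overlap at either stage. The difference between the stages was 4.30 on the log2(FPKM + 1) scale (SE 0.48, adjusted p = 0.0491 from limma), 4.19 after scaling, and from 3.92 to 4.67 when 1 library was left out. After scaling 0 genes had an adjusted p under 0.05 (606 an unadjusted P under 0.05), so this adjusted call was lost. It was also lost without any one of the 4 morula libraries and without 8-cell control replicate 1. Its capture by a kit for polyadenylated RNA was not tested.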

How the results depend on the processing

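Counts are genes past the call rule, 693 higher and 1040 lower with all libraries as deposited. A filter at a mean of 5 FPKM gave 461 and 597 of 5125 genes. Scaling over all entries gave 1022 and 687, the GC adjustment 666 and 567, and with a replicate block as well 745 and 642. With a library left out the counts ran from 350 to 813 higher and from 436 to 1056 lower, and with GC adjustment from 418 to 818 and from 345 to 704; the low ends are without TMZ replicate 2. The adjusted counts of lower genes were 532 and 435 without control replicates 1 and 2. Over all lists 41 members were higher and 153 lower. Scaling gave 62 higher, GC adjustment 98 lower, and with a library left out the counts ran from 23 to 55 and from 52 to 161, with 76 lower without control replicate 2. The difference between stages gave 538 positive and 100 negative genes, 180 negative after scaling, and with a library left out from 292 to 1000 and from 47 to 393. Adjusted p-values under 0.05 numbered 3 of 9685, 12 with the filter at 5 FPKM, 0 without a filter (2812 genes at an unadjusted P under 0.05) and 3 by voom. Hadhb, never called, turned from 0.061 to -0.18 on the log2 scale with GC adjustment, with or without a replicate block. The cause of these shifts was not tested.

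Replicate numbers are shared by the groups. Deviations of same-numbered libraries correlated at 0.076 in the only independent contrast, taken before GC adjustment. A single contrast cannot tell whether same-numbered libraries were paired or shared a batch. A replicate block gave 838 higher and 1151 lower genes, with 229 adjusted p-values under 0.05. Of 180 named genes tested, 176 kept direction and side of the rule under the block, 178 with a pseudocount of 0.1, 177 by voom, 162 after scaling and 126 after GC adjustment, where 52 were no longer called. Without TMZ replicate 2, 83 were no longer called. With 2 libraries a group, an exact permutation test could not reach a p under 0.05. Each library held 31672356 fragments or more, and whether depth or the 2 libraries a group limit these comparisons more was not tested.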

Other observations

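Genes of the X chromosome are described apart, since their counts were noticed after the values were seen; no test compared them with autosomal genes. Of 226 protein-coding X genes tested 53 rose and 9 fell, with a median log2 fold change of 0.13. Of 6397 on autosomes 294 rose and 785 fell, with a median of -0.14. After GC adjustment 46 X genes rose and 7 fell, and after median-ratio scaling 64 and 6. With 1 library left out between 21 (without TMZ replicate 2) and 55 rose. The median deviation of X genes from their mean over the 4 libraries was -0.076 and -0.13 in control replicates 1 and 2 and 0.031 and 0.16 in TMZ replicates 1 and 2. That of autosomal genes was 0.045, 0.096, -0.028 and -0.098. Examples are Sat1, the enzyme that starts polyamine breakdown, at 1186 and 1052 against 1684 and 2566 FPKM, Bex1 at 79.1 and 94.9 against 164 and 194 FPKM, and Msl3 at 18.6 and 21.3 against 34.4 and 32.7 FPKM. In 8-cell embryos the median deviations of X genes were 0.046 and -0.028 in control and 0.013 and -0.0044 in TMZ libraries A and B. Those of autosomal genes were 0.16 and 0.0077 in control and -0.17 and -0.019 in TMZ libraries A and B.

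Whether each library holds embryos of both sexes, and in what balance, is not given in the sources used here. The Y-linked Eif2s3y stood at 18.9 and 10.8 FPKM in control and at 18.2 and 5.51 FPKM in TMZ, and Ddx3y at 6.54 and 4.28 against 6.33 and 2.02 FPKM, so the groups overlapped in these 2 genes. In 3 others both TMZ libraries lay below both controls. Erdr1y stood at 77.2 and 57.5 against 34.9 and 34.3 FPKM, Usp9y at 1.78 and 1.06 against 0.995 and 0.207 FPKM, and Uba1y at 1.54 and 1.15 against 0.106 and 0.109 FPKM. Of the 31-base stretches of Uba1y 74.9% occur elsewhere in the genome. The groups overlapped in Uty and Zfy2, which averaged 0.245 and 0.306 FPKM. Xist, which silences an X chromosome in female cells, stood at 1.53 and 0.595 against 0.554 and 0.888 FPKM. The part of the sex of the embryos in the X difference was not tested.

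Processed pseudogenes leaned upward, with 135 of 958 tested higher and 40 lower (190 and 24 after GC adjustment, 69 and 21 without TMZ replicate 2). Long noncoding RNA genes had 44 of 396 higher and 33 lower. The histone gene H1f5 stood at 26.0 and 52.1 against 16.6 and 13.6 FPKM, and Rcc1, which charges the Ran GTPase on chromatin, at 36.3 and 37.0 against 19.9 and 13.3 FPKM, both past the call rule.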
